A study of Mus musculus with 2 samples.

Results

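Lgr5, Lgr4, Ascl2, Olfm4, Smoc2, Axin2, Nkd1, Rnf43, Znrf3 and Notum, 10 of the 31053 genes measured, are genes of the intestinal crypt that respond to Wnt signalling or mark its stem cells. They were chosen by name, with earlier results of these data known, and each was found as a single row of the count matrix. They were followed in organoids of the mouse small intestine, miniature epithelia kept in culture, by single-cell RNA sequencing with 3' droplet libraries. The labels list 1 control and 1 melatonin-treated sample, each made on culture day 3 from cells pooled from 3 independent organoid lines. Strain, genotype, age of the donor animals and melatonin dose are not given in the sources used here. The 3 deposited files of both samples were identical byte for byte, so there is a single matrix of 21806 barcodes, which counts as 1 sample.

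Barcodes in this matrix end in suffix 1 (set 1) or suffix 2 (set 2), and no label or header links a suffix to a treatment. Control and melatonin therefore cannot be compared, nothing that differs from set 1 to set 2 can be credited to melatonin or to its absence, and no test was run. In all, 29 barcode sequences occurred with both suffixes. The rule of at least 500 genes, at least 1000 unique molecular identifiers (UMIs, counts of single captured transcripts) and at most 20% mitochondrial UMIs kept 4066 cells, 2300 of set 1 with 61628537 UMIs and 1766 of set 2 with 51111519 UMIs. Median depth was 29872 UMIs per cell in set 1 and 28759 in set 2. Levels are UMIs summed over the cells of a group per 1000000 UMIs of that group (CPM), with exact 95% Poisson intervals in brackets. All intervals cover counting error only and say nothing of the spread between organoid lines, which were pooled.

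In the crypt, Wnt ligands stabilise beta-catenin, which joins TCF/LEF factors on target genes and keeps stem cells dividing. Lgr5 and Lgr4 encode receptors for R-spondins, which amplify that signal, and Rnf43 and Znrf3 encode the membrane ubiquitin ligases that remove Wnt receptors and that R-spondins hold in check. Axin2, Nkd1 and Notum are feedback inhibitors: a scaffold of the beta-catenin destruction complex, a Dishevelled-binding protein and a secreted enzyme that strips the lipid from Wnt ligands. Ascl2 encodes a transcription factor of crypt stem cells, Smoc2 a secreted matrix protein, and Olfm4 a secreted glycoprotein widely used as a stem cell marker that is known to respond to Notch. Ascl2 and Smoc2 are also used as stem cell markers.

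The promoters of Olfm4 and Axin2 are shown because these genes, 1 known for Notch and 1 for Wnt, were the pair detected together most above the product of their shares. Both come from RefSeq on GRCm38.p6, end at the base before the annotated start and are written on the gene's strand, with a match to the core motif of the Notch effector RBPJ in capitals.
Olfm4, chr14:80000052-80000301, plus strand: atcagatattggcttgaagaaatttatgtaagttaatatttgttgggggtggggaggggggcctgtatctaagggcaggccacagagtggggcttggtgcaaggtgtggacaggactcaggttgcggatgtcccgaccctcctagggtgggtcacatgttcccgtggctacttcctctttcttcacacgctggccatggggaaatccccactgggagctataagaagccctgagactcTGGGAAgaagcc
Axin2, chr11:108920099-108920348, plus strand: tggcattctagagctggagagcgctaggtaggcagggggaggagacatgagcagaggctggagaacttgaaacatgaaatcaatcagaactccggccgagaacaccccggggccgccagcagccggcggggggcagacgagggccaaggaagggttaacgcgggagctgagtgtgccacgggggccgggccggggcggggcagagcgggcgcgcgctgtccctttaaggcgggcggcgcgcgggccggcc
The letters searched on both strands were CTTTGA, the core of the TCF/LEF motif (TCAAAG on the other strand), and TGGGAA, the core of the RBPJ motif (TTCCCA on the other strand). RefSeq promoters were found for Lgr4, Ascl2, Olfm4, Axin2, Nkd1 and Rnf43, the last with 2, which makes 7 windows of 250 bases. CTTTGA was in 0 of the 7, against 13.8% of all 32851 promoters of this length. TGGGAA was in 1 of the 7, that of Olfm4, against 21.6% of all promoters, and began 12 bases before the start. The Axin2 window was 69.2% G and C and held 24 CpG dinucleotides, and that of Olfm4 was 54.0% and held 4.

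Cells with at least 5000 UMIs were sorted into cell types by the summed UMIs of marker lists that hold none of the 10 genes. Crypt-gated cells carried at least 4 UMIs per 10000 of a crypt list of 9 genes (Slc12a2, Rgmb, Mex3a, Sox9, Prom1, Cdk6, Tnfrsf19, Aqp4 and Gkn3) and passed no other gate. They numbered 1970 (1134 of set 1 and 836 of set 2), against 530 enteroendocrine-gated cells (264 and 266) and 199 enterocyte-gated cells (68 and 131). Smaller gates held 51 cells with markers of revival stem cells, which appear after injury, and 33 with goblet or Paneth markers. No gate was met by 695 cells, more than 1 gate by 54, and 534 cells were too shallow to gate. The crypt gate is a range and not a type: 1534 of the 3532 cells with at least 5000 UMIs, those that met no gate included, lay within 1.5-fold of its cut, which was set after the distribution was seen. Of 5 immune markers, Ptprc, which marks white blood cells, had 0 UMIs in all kept cells, Cd3e had 3, Lyz2 10, Cd79a 99 and Cd68 378. Of 5 mesenchymal markers, Col3a1 and Dcn had 0, Pdgfra 7, Col1a1 9 and Vim 8087. Of the Vim UMIs, 7680 were in enteroendocrine-gated cells, at 880 CPM against 0.725 in crypt-gated cells. The immune list summed to 3.81 CPM in crypt-gated, 6.76 in enteroendocrine-gated and 2.46 in enterocyte-gated cells. The part of such cells in the results was not tested.

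The receptor gene Lgr5 and the matrix protein gene Smoc2 were highest in crypt-gated cells of the 3 main types. Lgr5 stood at 117 CPM (115 to 120) in crypt-gated cells, 15.5 (13.0 to 18.3) in enteroendocrine-gated cells and 5.50 (3.89 to 7.54) in enterocyte-gated cells. Smoc2 stood at 195 (191 to 198), 65.3 (60.0 to 70.9) and 6.80 (4.99 to 9.04). In both genes the order of the 3 cell types was the same in set 1 and in set 2. Within a set the intervals of the cell types were apart, except those of Lgr5 in enteroendocrine-gated and enterocyte-gated cells of set 1. For Lgr5 the crypt level was 130 CPM in set 1 and 99.2 in set 2, the enteroendocrine level 15.6 and 15.4, and the enterocyte level 8.90 and 3.73. Of the 21 Lgr5 UMIs in enterocyte-gated cells of set 1, 9 were in 1 cell. For Smoc2 the crypt level was 176 and 221, the enteroendocrine level 55.8 and 74.2, and the enterocyte level 10.2 and 5.05.

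Olfm4 and Ascl2 were also highest in crypt-gated cells of the 3 main types. Olfm4 stood at 29.0 CPM (27.7 to 30.3) there, 3.09 (2.04 to 4.50) in enteroendocrine-gated cells and 0.868 (0.318 to 1.89) in enterocyte-gated cells. Nearly all of it lay in set 1, where these levels were 47.2, 5.42 and 2.12, against 3.06, 0.891 and 0.219 in set 2. Ascl2 was at 7.95 CPM (7.30 to 8.64), 1.60 (0.877 to 2.69) and 0.868 (0.318 to 1.89). Revival-gated cells held Ascl2 at 12.0 CPM (7.93 to 17.5) with Lgr5 at only 32.1 (25.1 to 40.4), so the crypt and revival intervals of Ascl2 overlapped while those of Lgr5 did not.

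For Axin2 and the ligase genes Znrf3 and Rnf43 the crypt level was less than 4-fold that of either other type with both sets pooled. Axin2 stood at 41.7 CPM (40.2 to 43.3) in crypt-gated, 33.3 (29.6 to 37.4) in enteroendocrine-gated and 16.9 (14.0 to 20.3) in enterocyte-gated cells. Its crypt and enteroendocrine levels were apart in set 1, at 47.6 and 33.7 CPM, and met in set 2, at 33.4 and 33.0. Znrf3 was highest in enteroendocrine-gated cells, at 17.3 CPM (14.6 to 20.3) against 9.69 (8.97 to 10.5) in crypt-gated and 3.04 (1.88 to 4.64) in enterocyte-gated cells. It kept that order in set 1 (17.0, 9.24 and 4.66) and in set 2 (17.6, 10.3 and 2.19). Rnf43, which encodes the partner ligase, had another order: 29.8 CPM (25.9 to 34.1) in enterocyte-gated, 18.7 (17.7 to 19.8) in crypt-gated and 9.39 (7.47 to 11.7) in enteroendocrine-gated cells. The enterocyte excess of Rnf43 turned round with at most 10% mitochondrial UMIs, where the log2 ratio of crypt-gated over enterocyte-gated cells was 0.82 in place of -0.64. Enterocyte-gated cells had a median of 14.9% mitochondrial UMIs and crypt-gated cells 9.20%, and the part of this gap in the Rnf43 level was not tested.

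Lgr4 was the most even of the receptors and ligases across the gates. Its level was 38.6 CPM (37.2 to 40.1) in crypt-gated, 41.5 (36.8 to 46.6) in enterocyte-gated and 30.5 (26.9 to 34.4) in enteroendocrine-gated cells. The crypt and enterocyte intervals overlapped, while the enteroendocrine interval lay below the other two. That gap lay in set 2, where the enteroendocrine level was 25.8 CPM (21.4 to 31.0) against 38.3 (36.0 to 40.6) in crypt-gated cells. In set 1 it was 35.3 (29.9 to 41.5) against 38.9 (37.0 to 40.8), with overlapping intervals.

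**Figure D1:**
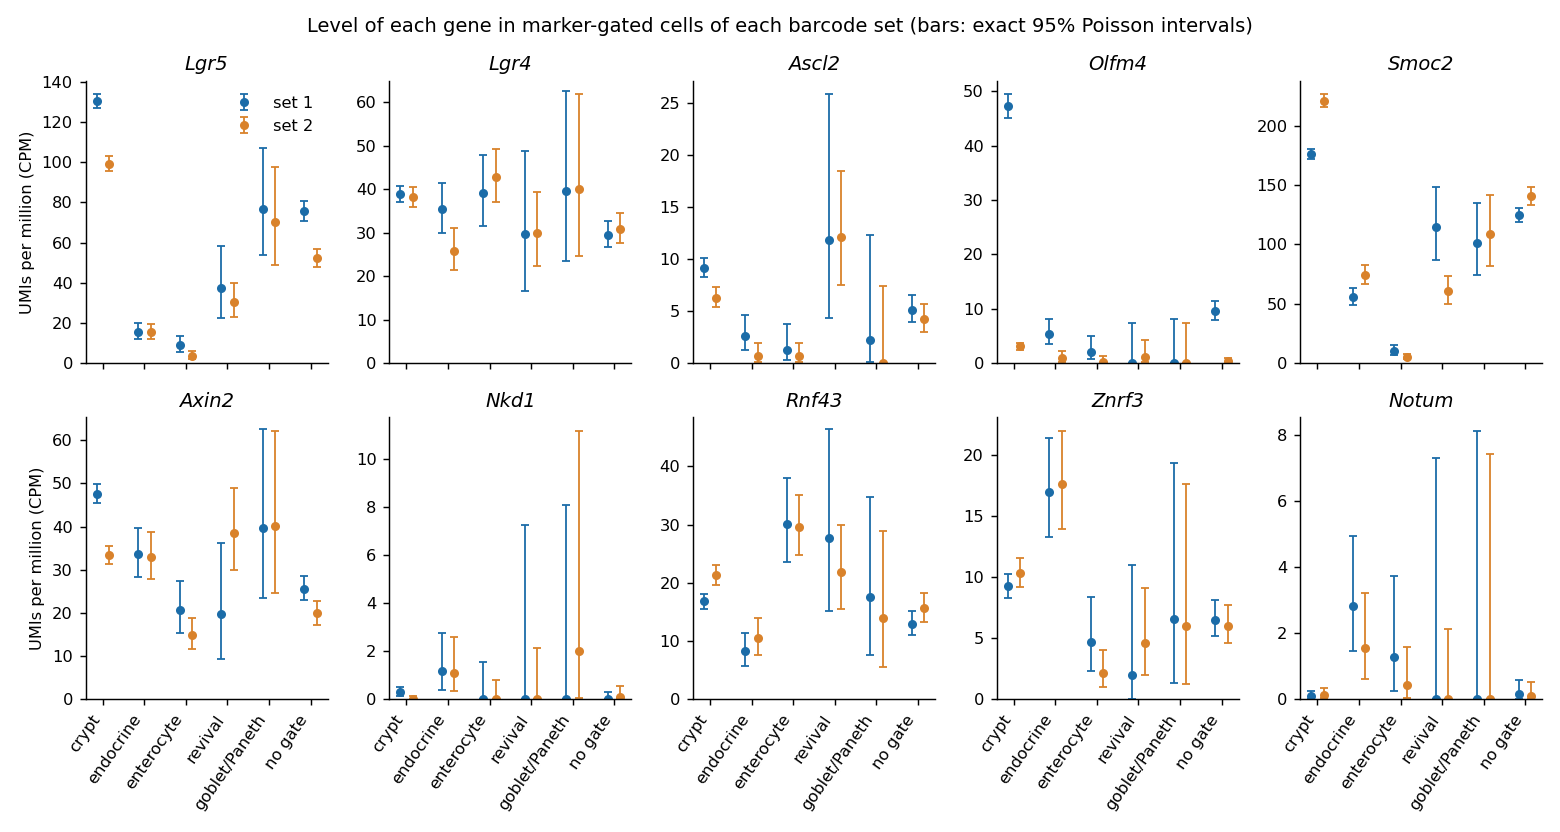
Levels of the 10 genes, in CPM, in 6 groups of marker-gated cells. Blue points are set 1 and orange points set 2, bars are exact 95% Poisson intervals, and each panel has its own scale. Lgr5, Smoc2 and Olfm4 stand out in crypt-gated cells, Znrf3 and Notum in enteroendocrine-gated cells, and Lgr4 varies little between groups. The Notum intervals of enteroendocrine-gated and enterocyte-gated cells overlap in both sets.

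Of the 10 genes, 6 were at least 2-fold higher in crypt-gated than in enterocyte-gated cells, as called on the CPM plus 1 scale. Folds printed with an interval are ratios of the CPM values themselves. The 6 genes were Lgr5 (21.4-fold, 15.6 to 30.2), Smoc2 (28.6-fold, 21.5 to 39.0), Olfm4 (33.4-fold, 15.3 to 91.2), Ascl2 (9.16-fold, 4.18 to 25.1), Znrf3 (3.19-fold, 2.07 to 5.19) and Axin2 (2.47-fold, 2.05 to 2.99). On the log2(CPM + 1) scale the differences were 4.65 for Smoc2, 4.19 for Lgr5, 4.01 for Olfm4 and 2.26 for Ascl2, so Olfm4 stood first by CPM ratio and behind Smoc2 and Lgr5 with the pseudocount. Among all genes with at least 10 UMIs, 18.2% passed the same fold. None of the 10 was 2-fold lower, against 10.6% of all genes. The counts were 5 of 9 higher in set 1 (19.8% of all genes) and 6 of 8 in set 2 (21.2%), with 0 lower in either (11.9% and 11.2%). Znrf3 was not called in set 1, where the ratio of its CPM values, without the pseudocount, was 1.98. Against enteroendocrine-gated cells, 4 of the 10 were at least 2-fold higher, Lgr5 (7.60-fold, 6.41 to 9.08), Olfm4 (9.38-fold, 6.43 to 14.3), Ascl2 (4.96-fold, 2.93 to 9.13) and Smoc2 (2.98-fold, 2.74 to 3.25), with 9.29% of all genes past that fold. Notum was the 1 gene lower, against 27.1% of all genes. In set 1, 4 of 10 were higher (9.77% of all genes) and 1 lower (29.4%), and in set 2, 4 of 9 were higher (11.2%) and 1 lower (27.1%). These folds compare groups of cells of 1 matrix.

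Droplets also take up RNA that floats free, so levels outside the crypt were set beside genes of known type. Each cell was thinned by calculation to 5000 UMIs, and Chgb, an enteroendocrine gene, then had a UMI in 20.8% of crypt-gated cells and 17.7% of enterocyte-gated cells, against 99.5% of enteroendocrine-gated cells. At that depth Lgr5 was detected in 42.2% of crypt-gated, 5.11% of enteroendocrine-gated and 2.41% of enterocyte-gated cells, and Smoc2 in 59.5%, 24.1% and 3.39%. Without thinning, the shares for Lgr5 were 89.3%, 13.2% and 11.1%, at median depths of 35239, 14970.5 and 34502 UMIs. Ratios between the genes were also taken. In set 1, enteroendocrine-gated cells carried 0.348 Olfm4 UMIs per Lgr5 UMI (0.207 to 0.568) and crypt-gated cells 0.362 (0.344 to 0.382). They carried 3.59 Smoc2 UMIs per Lgr5 UMI (2.72 to 4.79), against 1.35 (1.30 to 1.40) in crypt-gated cells, and 2.17 Axin2 UMIs (1.61 to 2.95), against 0.365 (0.347 to 0.385). In set 2 the Olfm4 ratio was 0.0580 (0.0154 to 0.155) in enteroendocrine-gated and 0.0308 (0.0246 to 0.0381) in crypt-gated cells. The Smoc2 ratio there was 4.83 (3.71 to 6.35) and 2.23 (2.13 to 2.33), and the Axin2 ratio 2.14 (1.60 to 2.90) and 0.336 (0.312 to 0.362). In both sets the intervals of the cell types overlapped for Olfm4 and were apart for Smoc2 and Axin2. The part of free RNA in these levels was not tested.

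Nkd1 and Notum were rare, and their few UMIs did not lie in the bulk of the crypt-gated cells. Notum had 39 UMIs in all, 23 in set 1 and 16 in set 2. Of these, 19 came from 18 enteroendocrine-gated cells, so 48.7% of its UMIs lay in cells that held 7.75% of all UMIs. Its level there was 2.18 CPM (1.31 to 3.40), 18.8-fold (7.84 to 49.5) that of crypt-gated cells at 0.116 (0.0501 to 0.229). Per set it was 2.83 against 0.0988 CPM in set 1 and 1.56 against 0.141 in set 2, higher in enteroendocrine-gated cells in both. Enterocyte-gated cells held Notum at 0.723 CPM (0.235 to 1.69), from 5 UMIs in 5 cells. That interval also lay above the crypt one and overlapped that of enteroendocrine-gated cells.

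Nkd1 had 26 UMIs in all, 19 in set 1 and 7 in set 2. The crypt gate held 12 of them in 6 cells, all of set 1, and the enteroendocrine gate 10 in 8 cells. Enterocyte-gated and revival-gated cells had 0, which allows levels of up to 0.434 and 1.34 CPM. The 3 crypt-gated cells with 2 or more Nkd1 UMIs had 4, 3 and 2, were scored as G1 and had 0 Lgr5 UMIs, at depths of 13646, 17840 and 11098 UMIs. They carried 16.1, 8.97 and 13.5 UMIs per 10000 of the tuft cell list (Dclk1, Trpm5, Avil, Pou2f3, Gnat3 and Alox5ap). Tuft cells are rare chemosensory cells of the epithelium.

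All cells with at least 4 UMIs per 10000 of that list were then collected, a step chosen after the Nkd1 cells had been seen. There were 10, of which 9 were of set 1 and 9 had passed the crypt gate. Trpm5 and Avil had a UMI in 10 of the 10, Pou2f3, the transcription factor of the tuft lineage, in 9, Alox5ap in 6, Gnat3 in 5 and Dclk1 in 4. These cells held 11 of the 26 Nkd1 UMIs, in 5 cells, while the 1961 other crypt-gated cells held 1. Of the 11, 9 were in the 3 cells that had prompted the step, and the other 7 cells held 2, so the 53.0 CPM of Nkd1 in the 10 cells mainly describes the cells that prompted the step. Ascl2 had 19 UMIs in 8 of the 10 cells, a level of 91.5 CPM (55.1 to 143) against 7.72 (7.08 to 8.41) in the other crypt-gated cells. Smoc2 was also present, with 56 UMIs in 9 cells and a level of 270 CPM (204 to 350) against 194 (191 to 198). Lgr5 was low, with 6 UMIs in 3 cells and a level of 28.9 CPM (10.6 to 62.9) against 118 (115 to 120). Without the 3 prompting cells, the 7 others held Ascl2 at 84.9 CPM (46.4 to 142), Smoc2 at 248 (178 to 337) and Lgr5 at 36.4 (13.3 to 79.2), with 4 of the 6 Lgr5 UMIs in 1 cell. The Smoc2 interval then overlapped that of the other crypt-gated cells, and those of Ascl2 and Lgr5 did not. Of the 10 cells, 5 had no Nkd1 UMI. The cell with most of the tuft list, at 60.6 UMIs per 10000, held 28 of the 38 Dclk1 UMIs of the 10 cells. It had 0 UMIs of Ascl2, Smoc2, Nkd1 and Pou2f3.

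Within the enteroendocrine gate, cells with a UMI of Neurog3, the factor that starts the endocrine program, were compared with the rest, a split also chosen after values were seen. Nkd1 stood at 2.97 CPM (1.28 to 5.85) in the 188 cells with a Neurog3 UMI and 0.331 (0.0401 to 1.20) in the 342 without. In each set the intervals overlapped, at 2.39 CPM (0.651 to 6.12) against 0.389 (0.00985 to 2.17) in set 1 and 3.91 (1.07 to 10.0) against 0.289 (0.00731 to 1.61) in set 2. Of the 8 Nkd1 UMIs behind the higher level, 4 came from 2 cells, and without those cells the level was 1.501 CPM (0.409 to 3.84), with an interval that overlapped that of the cells without Neurog3. Notum stood at 4.08 CPM (2.04 to 7.30) and 1.33 (0.572 to 2.61), with overlapping intervals. Olfm4 stood at 6.68 CPM (3.96 to 10.6) and 1.49 (0.682 to 2.83), with intervals apart, and per set at 8.97 against 3.11 and at 2.94 against 0.289, with overlapping intervals in each set. Lgr5 was at 15.6 and 15.4 CPM, and Smoc2 at 62.0 and 66.8, so these levels lay within each other's intervals. The 2 enteroendocrine-gated cells with 2 Nkd1 UMIs carried 17 and 7 Neurog3 UMIs, and the cell with 2 Nkd1 UMIs that passed more than 1 gate carried 13.

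Between the barcode sets, Olfm4 was the 1 gene of the 10 past 1.5-fold. It stood at 33.9 CPM (32.4 to 35.4) in set 1 and 1.94 (1.57 to 2.36) in set 2, so set 1 was 17.5-fold higher (14.3 to 21.6). In the direction of lower in set 2, 1 of 10 genes was past 1.5-fold, against 1.40% of all genes, and in the direction of higher in set 2, 0 of 10, against 2.46%. Lgr5, Ascl2 and Axin2 were lower in set 2 without passing that fold on the CPM plus 1 scale. Lgr5 was at 105 CPM (102 to 107) in set 1 and 69.6 (67.4 to 72.0) in set 2, Ascl2 at 7.42 (6.75 to 8.13) and 4.89 (4.30 to 5.54), and Axin2 at 41.0 (39.5 to 42.7) and 29.2 (27.7 to 30.7). The intervals of the sets were apart in each of these 3 genes. With Olfm4, 4 of 10 genes were lower in set 2 by that rule, against 12.2% of all genes, and 2 of 10 higher, against 20.9%.

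Smoc2 and Rnf43 went the other way. Smoc2 was at 148 CPM (145 to 151) in set 1 and 163 (160 to 167) in set 2, and Rnf43 at 16.3 (15.3 to 17.4) and 19.9 (18.7 to 21.2). Lgr4 (36.8 and 35.8 CPM), Znrf3 (9.10 and 9.22), Nkd1 (0.308 and 0.137) and Notum (0.373 and 0.313) had overlapping intervals. The 10 genes thus did not move as a block, and 2 stem cell markers, Lgr5 and Smoc2, moved in opposite directions.

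The same pattern was seen within crypt-gated cells, whose share was close in the sets (49.3%, 47.2 to 51.4, and 47.3%, 45.0 to 49.7). Olfm4 was 15.5-fold (12.5 to 19.4) higher in set 1 and was again the 1 gene past 1.5-fold of 9 with enough UMIs, against 2.11% of all genes, while 0 of 9 were past it in the other direction, against 1.87%. Lgr5 was at 130 CPM in set 1 and 99.2 in set 2 (ratio of set 2 over set 1 0.761, 0.727 to 0.797), Ascl2 at 9.12 and 6.29 (0.690, 0.574 to 0.827), and Axin2 at 47.6 and 33.4 (0.701, 0.648 to 0.758). Smoc2 was at 176 and 221 (1.255, 1.21 to 1.30) and Rnf43 at 16.9 and 21.4 (1.27, 1.13 to 1.42). Crypt-gated cells of set 1 carried 1.35 Smoc2 UMIs per Lgr5 UMI (1.30 to 1.40) and those of set 2 carried 2.23 (2.13 to 2.33), a ratio that does not depend on scaling to depth. Nkd1 had 12 UMIs and 0, and the 12 came mostly from the tuft-marker cells.

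**Figure D2:**
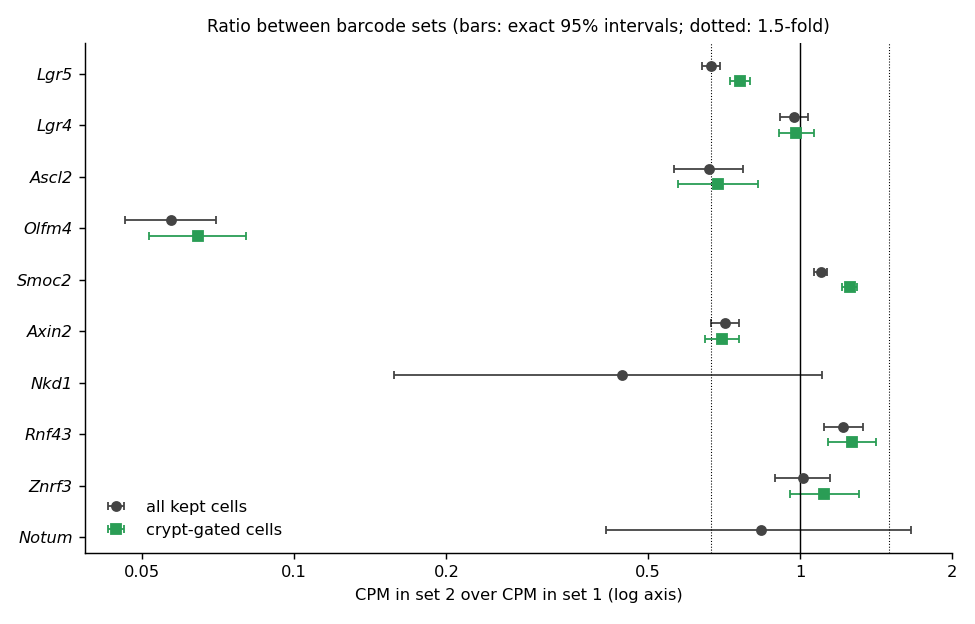
CPM in set 2 divided by CPM in set 1 on a log axis, for all kept cells (circles) and crypt-gated cells (squares), with exact 95% intervals and dotted lines at 1.5-fold. Olfm4 lies far to the left in both groups of cells, Lgr5, Ascl2 and Axin2 lie left of 1 and Smoc2 and Rnf43 right of it. Nkd1 and Notum are shown for all kept cells only.

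Other measures also moved with the sets. Sis, an enterocyte gene, stood at 188 CPM in crypt-gated cells of set 1 and 89.9 in those of set 2, against 1976 and 1883 in enterocyte-gated cells, which made up 2.96% of cells in set 1 and 7.42% in set 2. Chgb in crypt-gated cells stood at 46.7 and 44.4 CPM. The part of the Sis difference in the gaps above was not tested. Cell cycle phase differed too: 83.5% of crypt-gated cells of set 1 (81.2 to 85.6) and 58.6% of those of set 2 (55.2 to 62.0) were scored as G2M. Within phases, the Lgr5 gap was found in G2M cells (133 CPM in set 1, 129 to 137, and 103 in set 2, 98.9 to 108) and S cells (114, 102 to 127, and 88.3, 81.1 to 96.0). In G1 cells Lgr5 was at 98.0 CPM (83.8 to 114) and 95.5 (85.5 to 106). Olfm4 was past 1.5-fold lower in set 2 in each phase, at 6.87 against 1.16 CPM in G1, 12.7 against 4.50 in S and 52.0 against 2.93 in G2M. The G1 levels rested on 12 UMIs in 6 cells and 4 UMIs in 4 cells. In S cells of set 2, 23 of the 28 Olfm4 UMIs were in 1 cell. Smoc2 was higher in set 2 in each phase, at 137 against 185 CPM in G1, 158 against 213 in S and 179 against 230 in G2M. In G1, 3 of 8 genes (Ascl2, Olfm4 and Axin2) were past 1.5-fold lower in set 2, against 9.31% of all genes. In S it was 1 of 8 (Olfm4), against 5.47%, and in G2M 2 of 8 (Ascl2 and Olfm4), against 2.07%. The G1 cells numbered 85 in set 1 and 138 in set 2, and in them the intervals of Ascl2 and Axin2 overlapped. Ascl2 was there at 12.0 CPM (7.45 to 18.4) and 5.52 (3.32 to 8.61), and Axin2 at 34.9 (26.7 to 44.9) and 22.9 (18.2 to 28.6). Higher in set 2 past that fold were 0 of 8 in each phase, against 7.37% of all genes in G1, 7.72% in S and 1.80% in G2M.

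The Olfm4 UMIs were concentrated in few cells, and those of Lgr5 and Smoc2 were not. Over all kept cells, 27 cells held 50% or more of the Olfm4 UMIs, against 596 cells for Lgr5 and 705 for Smoc2. In crypt-gated cells of set 1, 880 of 1134 had no Olfm4 UMI, 101 had 1, 103 had 2 to 9 and 50 had 10 or more, up to 103. In those of set 2, 802 of 836 had none and 2 had 10 or more. Leaving out the 3 cells with most Olfm4 UMIs in each set gave a log2 ratio of -3.86, against -3.57 with all cells.

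**Figure D3:**
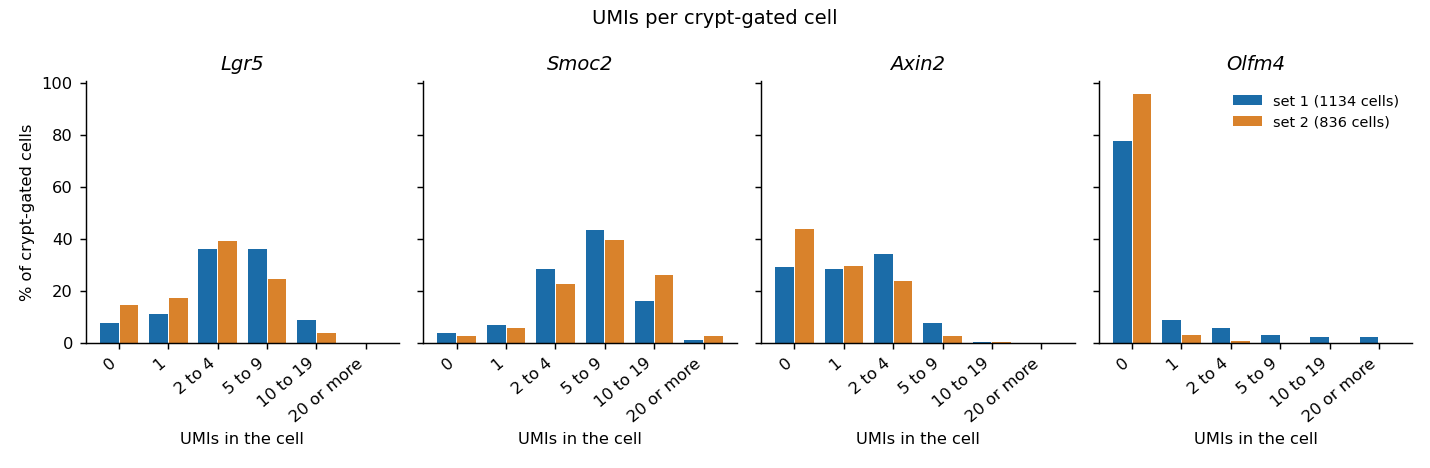
Percentage of crypt-gated cells with 0, 1, 2 to 4, 5 to 9, 10 to 19 and 20 or more UMIs of Lgr5, Smoc2, Axin2 and Olfm4, in blue for set 1 (1134 cells) and orange for set 2 (836 cells). Most cells hold several Lgr5 and Smoc2 UMIs, while 77.6% of set 1 and 95.9% of set 2 hold no Olfm4 UMI and a tail of set 1 cells holds 10 or more.

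In set 1, 60 crypt-gated cells (5.29%) carried Olfm4 at 2 or more UMIs per 10000 and held 75.9% of its UMIs in that group. Other genes were compared between these 60 cells and the other 1074, a description of cells picked by Olfm4. Axin2 was at 85.2 CPM in them and 45.3 in the rest (1.88-fold, 1.62 to 2.18), and Ascl2 at 17.1 and 8.63 (1.99-fold, 1.39 to 2.76). Lgr5 was at 159 and 129 CPM (1.24-fold, 1.11 to 1.38) and Smoc2 at 195 and 175 (1.11-fold, 1.01 to 1.22). Lgr4 (1.11-fold, 0.896 to 1.36), Rnf43 (0.937-fold, 0.654 to 1.31) and Znrf3 (1.37-fold, 0.906 to 2.01) had intervals that include no difference. Olfm4-rich cells thus carried more of the Wnt feedback gene Axin2 and of Ascl2, and Lgr5 differed less. Their median depth was 40341.5 UMIs against 36055 in the rest, and 93.3% were scored as G2M against 83.0%.

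By scored phase, Olfm4 and Axin2 were past 1.5-fold higher in G2M than in G1 crypt-gated cells, 2 of 9 genes with enough UMIs, against 9.27% of all genes. Olfm4 stood at 35.1 CPM (33.6 to 36.7) in G2M, 7.11 (5.49 to 9.07) in S and 3.08 (1.76 to 5.01) in G1, and Axin2 at 45.5 (43.8 to 47.4), 27.4 (24.1 to 31.0) and 27.0 (22.7 to 31.8). In the opposite direction Rnf43 stood at 17.5 (16.4 to 18.6), 21.2 (18.3 to 24.4) and 27.2 (22.9 to 32.0), and Nkd1 had 2, 1 and 9 UMIs, so 2 of 9 genes were past 1.5-fold lower, against 5.61% of all genes. The Nkd1 call was lost without the tuft-marker cells. Among the receptor and stem cell genes, Lgr5 was at 123 CPM in G2M, 96.6 in S and 96.3 in G1, Smoc2 at 197, 196 and 169, and Lgr4 at 38.9, 36.4 and 39.3.

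These phase patterns were also taken within each set. Olfm4 in set 1 was at 52.0 CPM in G2M (49.7 to 54.4) and 6.87 in G1 (3.55 to 12.0), and in set 2 at 2.93 (2.20 to 3.81) and 1.16 (0.316 to 2.97), with overlapping intervals. Axin2 was at 49.5 CPM in G2M and 34.9 in G1 in set 1, which did not pass 1.5-fold, and at 37.9 and 22.9 in set 2, which did. Rnf43 was at 16.0 and 26.9 CPM in set 1 and at 20.4 and 27.3 in set 2, where it did not pass. Axin2 and Rnf43 thus went the same way in both sets, and whether the size of the change differs between sets was not tested. In set 1, 1 of 9 genes was past 1.5-fold higher in G2M (14.5% of all genes) and 2 lower (10.7%), and in set 2, 2 of 8 were higher (13.9%) and 0 lower (4.66%). Scoring phase instead by the larger share of S and G2M UMIs gave a log2 ratio of G2M over G1 of -0.06 for Olfm4, against 3.15, and 30 of the 60 Olfm4-rich cells were then in G2M against 56. The phase pattern of Olfm4 therefore depends on how phase is scored. Under the same rule Axin2 (0.45, against 0.73) and Rnf43 (-0.52, against -0.61) kept their direction without passing 1.5-fold.

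Between S and G1, Olfm4 was past 1.5-fold higher, 1 of 9 genes, against 11.1% of all genes, and Nkd1 past 1.5-fold lower, 1 of 9, against 5.19%. Of the 65 Olfm4 UMIs in S cells, 23 were in 1 cell of set 2, and the ratio was not taken without that cell. With at most 50% mitochondrial UMIs the log2 ratio of Olfm4 was -0.46, against 0.99, and without the tuft-marker cells Nkd1 was not called. In set 1, 1 of 9 genes was higher (16.0% of all genes) and 1 lower (11.2%), and in set 2, 2 of 8 were higher (13.1%) and 0 lower (4.35%). These shares are close to the background. Olfm4 was 1 of the 2 in set 2, with 23 of its 28 S UMIs in the cell named above.

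**Figure D4:**
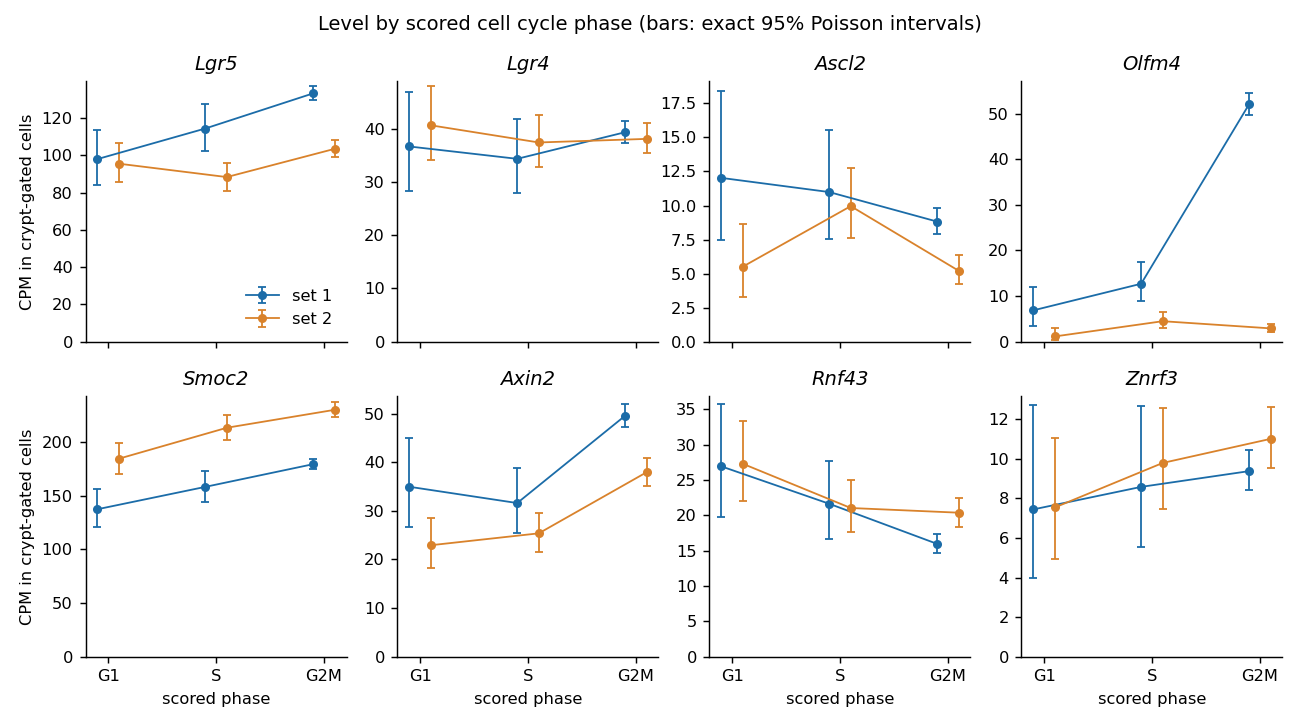
CPM of 8 genes in crypt-gated cells scored as G1, S and G2M, in blue for set 1 and orange for set 2, with exact 95% Poisson intervals; lines join the phases of a set. Smoc2 is higher in set 2 and Olfm4 in set 1 in each phase, Lgr5 of the sets meets in G1, and Rnf43 is lowest in G2M.

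Co-detection was measured in the 1970 crypt-gated cells, each thinned by calculation to 5000 UMIs so that deep cells do not pair genes by depth alone. The share of cells with both genes was divided by the product of the single shares, so that 1 means independent detection. Of 45 pairs, 26 had at least 5 cells by that product, and their ratios ran from 0.810 to 1.62 with a median of 1.04. Pairs at least 25% above independent detection were counted. Lgr5 and Smoc2 were found together in 25.9% of cells (23.9 to 27.9), a ratio of 1.03 (0.953 to 1.11). With the sets pooled and at this depth, a cell with the one was thus hardly more likely to show the other. These genes moved in opposite directions between the sets, and the part of this in the ratio was not tested. Within each set, Smoc2 was higher in the third of cells with most Lgr5 than in that with least. It stood at 194 against 158 CPM in set 1 and 235 against 190 in set 2. The ratio of Lgr5 and Olfm4 was 1.20 (0.910 to 1.54).

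Olfm4 and Axin2 had the highest ratio, 1.62 (1.12 to 2.27), or 1.41 (0.977 to 1.97) when the products were taken within set and phase. In set 1 alone it was 1.44 (0.987 to 2.03), and in set 2 the pair had too few cells to rate. Olfm4 and Znrf3 were the other pair past that excess, at 1.26 (0.509 to 2.57). Olfm4 and Rnf43 were lowest, at 0.810 (0.365 to 1.55). Both pairs past it in crypt-gated cells held Olfm4. In set 2, 0 of 17 rated pairs were past it. At that depth only 0.995% of crypt-gated cells of set 2 had an Olfm4 UMI, so most pairs with Olfm4 could not be rated there. The set 2 count therefore cannot tell whether the excess goes with Olfm4. In enteroendocrine-gated cells 1 of 8 rated pairs was past it, Smoc2 with Rnf43 at 1.30 (0.544 to 2.59).

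**Figure D5:**
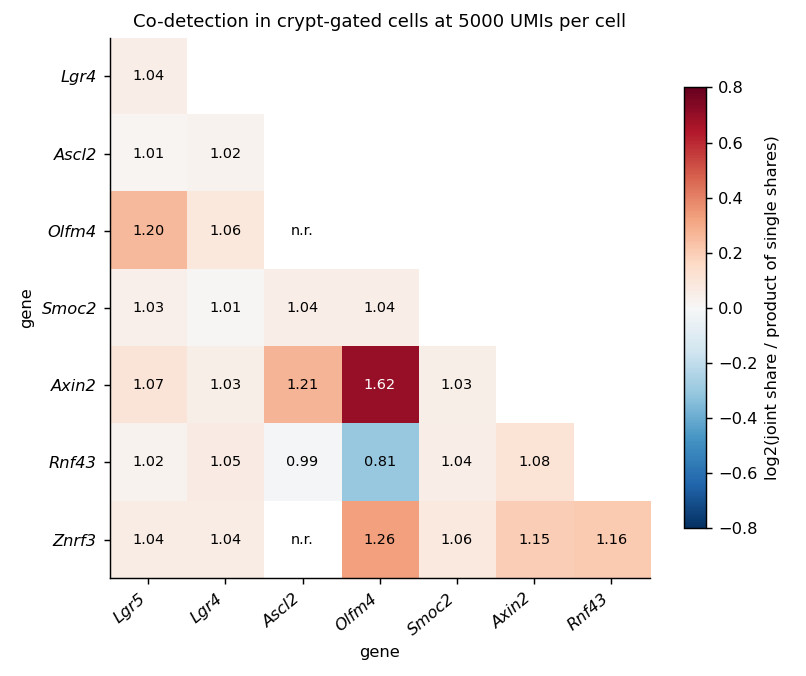
Joint share of cells divided by the product of single shares for pairs of 8 genes in 1970 crypt-gated cells at 5000 UMIs per cell. Red is above 1, blue below, the colour scale is log2, and n.r. marks pairs not rated because fewer than 5 joint cells were given by the product. Olfm4 with Axin2 stands out at 1.62, and most other pairs lie near 1.

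Crypt-gated cells were also split into 3 groups of equal size by their own Lgr5 level within each set. From the lowest to the highest group, Smoc2 was at 158, 177 and 194 CPM in set 1 and 190, 237 and 235 in set 2. Axin2 was at 42.3, 46.1 and 54.6 CPM in set 1, and at 33.4, 32.4 and 34.4 in set 2, where all intervals overlapped. Ascl2 was at 8.66, 8.52 and 10.2 CPM in set 1 and at 6.05, 6.96 and 5.80 in set 2, with overlapping intervals in both. Olfm4 was at 15.8, 69.0 and 55.3 CPM in set 1 and at 2.05, 4.37 and 2.62 in set 2, and in set 2 the intervals of the lowest and highest groups overlapped. The share of cells scored as G2M was 76.2%, 87.3% and 87.0% in set 1 and 56.3%, 56.8% and 62.7% in set 2. The crypt list that holds none of the 10 genes was at 6.19, 6.70 and 7.54 UMIs per 10000 in set 1 and 6.30, 7.14 and 7.75 in set 2, so the Lgr5 level went with the other crypt markers in both.

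Across 16 groups of at least 50 cells defined by gate, phase and set, the pattern of Lgr5 on the log2(CPM + 1) scale was most like those of Pgap2 (r = 0.98), Npm1, Eef1g, Impdh2 and Cct4. Smoc2 was most like Cebpz (0.99), Hmgn1, Hsp90ab1, Hnrnpc and Hnrnpa0. Axin2 was most like Slc44a1 (0.89), Rgmb, Rfx7, 2900060B14Rik and Dnajb14, of which Rgmb is in the crypt list of the gate. Olfm4 was most like Igf2bp2 (0.81), 2900060B14Rik, Id2, Ifitm3 and Esrrg. These were the highest of 9256 genes compared, and the groups share libraries and gates, so the values are descriptions. Among the 10 genes themselves, the 6 highest r were those of Lgr5 with Smoc2 (0.91), Lgr5 with Ascl2 (0.90), Ascl2 with Smoc2 (0.78), Olfm4 with Axin2 (0.76), Lgr4 with Rnf43 (0.69) and Axin2 with Znrf3 (0.67). The 2 lowest were those of Lgr5 with Notum (-0.62) and Rnf43 with Znrf3 (-0.59).

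Other genes of the Wnt pathway were taken from a list of 52 ligands, receptors, signal components and targets. Between the sets, 40 had enough UMIs, 1 was past 1.5-fold higher in set 2, Sp5, and 0 lower, with a median log2 ratio of 0.01 against 0.03 for all genes. With no fold required, 12 of the 40 had intervals apart between the sets, 5 lower in set 2 (12.2% of all genes) and 7 higher (20.9%), so these counts are near those of all genes. The 12 were 6 of 13 targets, 5 of 17 signal components (Tcf7l1 lower; Apc, Tcf7l2, Pygo2 and Wls higher), the receptor gene Fzd5 (lower) and 0 of 4 ligands. Among the targets, lower in set 2 were Myc (24.1 CPM in set 1 and 19.7 in set 2), Ccnd1 (40.5 and 35.0) and Sfrp5 (0.503 and 0.0391), and higher were Cd44 (27.2 and 34.8), Ephb2 (29.4 and 32.4) and Sp5 (2.43 and 4.68). Against enterocyte-gated cells, 11 of 37 were at least 2-fold higher in crypt-gated cells, against 18.2% of all genes, and 1, Sp5, lower, against 10.6%, with a median of 0.37 against 0.21 for all genes. Of the 11, 8 were targets, Myc, Ccnd1, Cd44, Ephb2, Ephb3, Sox9, Lrig1 and Bambi, and Sox9 is also in the crypt list of the gate.

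Against enteroendocrine-gated cells, 3 of 38 pathway genes were at least 2-fold higher in crypt-gated cells (Ccnd1, Fzd5 and Myc), against 9.29% of all genes, and 12 lower, against 27.1%, with a median of -0.62 against -0.36 for all genes. Both counts are near the share of all genes. The 12 included the ligand genes Wnt3 and Wnt9b and the targets Cd44, Ephb2 and Ephb3. Wnt3, named after its values were seen, stood at 68.1 CPM (62.8 to 73.8) in enteroendocrine-gated and 0.595 (0.427 to 0.807) in crypt-gated cells. The 6 genes of the list with most UMIs were Csnk1a1, Ctnnb1 (beta-catenin), Gsk3b, Sox9, Tcf7l2 and Fzd5. Ctnnb1 stood at 173 CPM in set 1 and 180 in set 2, Tcf7l2 at 48.9 and 59.4, Gsk3b at 98.2 and 99.4, Csnk1a1 at 225 and 229, Sox9 at 73.1 and 73.9 and Fzd5 at 44.4 and 39.3. None of these 6 was past 1.5-fold between the sets.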

How the data were processed

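Single-cell 3' libraries of mouse small intestinal organoids were analysed from the deposited matrix, which holds raw UMI counts per gene and barcode as the authors deposited them, not normalized. Per the submitters' processing notes, bcl2fastq 2.20.0, Cell Ranger 3.1.0 and STAR 2.7.3a were used; the genome build is not given in the sources used here. There were 0 per-sample columns without a label, and the matrix was used as 1 sample.

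Cells were kept, gated and phased (scanpy 1.11.5 cell cycle scores) as the results state. Gate cuts, in UMIs per 10000 of a marker list, were 30 for enteroendocrine and enterocyte cells, 100 for goblet and Paneth cells, 10 for revival cells and 4 for crypt cells, and were set after the distributions were seen. No doublet caller was run; cells that passed more than 1 gate were kept apart, and an alternative left out the 5% of cells with most UMIs. Folds were called on CPM plus a pseudocount of 1, among genes with at least 10 UMIs. Intervals are exact at the 95% level (Poisson for levels, conditional binomial for folds, Clopper-Pearson for shares) and describe counting error alone. Those of thinned shares and co-detection ratios are approximate, because they rest on expected and not whole counts. For co-detection ratios the product of single shares was also held fixed, so its error is left out. Where no UMI was found, up to 3 counts are allowed. Thinning used the hypergeometric distribution (scipy 1.17.1). The code was tested on simulated data. All 10 genes are named; genes most like Lgr5, Olfm4, Smoc2 and Axin2 are the 5 with the highest r at 5 CPM or more. The genes, lists and comparisons were chosen with earlier results of these data known. Alternatives were other pseudocounts, mitochondrial limits, gate cuts, depths, a mean of each cell's CPM, another phase rule and single sets.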

Additional observations from a re-analysis of the deposited data

Results flagged for a closer look

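The 9781 barcodes with at least 500 genes and 1000 UMIs but over 20% mitochondrial UMIs entered no comparison, and UMIs of all 10 genes were found in them above the limit that a count of 0 allows. Levels here are per 1000000 non-mitochondrial UMIs, since the mitochondrial share differs. Lgr5 stood at 140.6 in these barcodes and 98.3 in kept cells, Smoc2 at 210.5 and 172, and Axin2 at 57.2 and 39.5. Lgr4 stood at 76.9 and 40.3, Znrf3 at 17.7 and 10.1, and Rnf43 at 60.9 and 19.9. Olfm4 stood at 29.8 and 21.5, and its gap between the sets was seen here too, at 49.0 in set 1 and 5.85 in set 2. By set, Lgr5 stood at 155 in set 1 and 122 in set 2, Lgr4 at 71.8 and 83.2, Ascl2 at 5.61 and 4.49, Smoc2 at 198 and 226, and Rnf43 at 59.0 and 63.2. Axin2 was at 56.5 and 58.0, against 45.5 and 32.3 in kept cells, and Znrf3 at 14.8 and 21.4, against 10.1 and 10.2 in kept cells. Ascl2 was lower, at 5.11 against 6.95. Nkd1 (0.372 and 0.256) and Notum (0.745 and 0.383) rested on 11 and 22 UMIs. Differences between these barcodes and kept cells were not tested.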

How the results depend on the processing

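Over 707 single values recomputed under alternatives, 616 moved by less than their counting interval, 89 moved by more, and 2 were values past a threshold that changed sign, both of Olfm4: -0.0605 for G2M over G1 with phase by UMI shares, and -0.461 for S over G1 with at most 50% mitochondrial UMIs. Of the 524 log2 ratios among them, 33 changed sign, 31 of which had not been past a threshold, such as Rnf43 in crypt-gated over enterocyte-gated cells (0.82 at 10% mitochondrial UMIs). Olfm4 between the sets kept its direction and stayed past 1.5-fold in 11 of 11 alternatives (log2 -4.06 to -1.32), and the crypt over enterocyte folds of Lgr5, Smoc2 and Olfm4 stayed past 2-fold in 11 of 11. Counts moved as follows. Of 1 gene lower in set 2, there were 4 with a pseudocount of 0.1 CPM, 2 with the mean of each cell's CPM, 3 in crypt-gated G1 cells and 2 in crypt-gated G2M cells. Of 6 genes higher in crypt-gated than enterocyte-gated cells, there were 3 with a pseudocount of 10 CPM, and of 0 lower there was 1 with 0.1 CPM. Of 1 gene lower than in enteroendocrine-gated cells there were 2 with 0.1 CPM, with gate cuts halved and without tuft-marker cells, and 0 with 10 CPM. For G2M over G1, in place of 2 genes higher there was 1 with the mean of each cell's CPM, with phase by UMI shares (Znrf3, log2 0.64, and neither of the 2) and in set 1 only; the 2 lower became 0 with 10 CPM, with phase by UMI shares and in set 2 only, and 1 with cuts doubled, with cuts halved and without tuft-marker cells. For S over G1, the 1 gene higher became 0 with 10 CPM, with the mean of each cell's CPM, at 50% mitochondrial UMIs and with cuts halved, 3 with cuts doubled and 2 in set 2 only; the 1 lower became 0 with 10 CPM, in set 2 only and without tuft-marker cells. The 2 pairs at least 25% above independent detection became 1 without the 5% of cells with most UMIs and in set 1 only, 5 in all kept cells and 0 in set 2 only. Single sets, phases within sets, the tuft-marker cells and the 3 richest Olfm4 cells were alternatives chosen after seeing the data. The causes of these changes were not tested, except that leaving out tuft-marker cells removes 11 Nkd1 UMIs. No paired analysis was possible because both samples hold the same matrix. Depth limits Nkd1 and Notum, with 26 and 39 UMIs in all.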

Other observations

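Enteroendocrine-gated cells were split by Tph1, the enzyme of serotonin synthesis that marks enterochromaffin cells, after values were seen. In the 308 cells with at least 5 Tph1 UMIs per 10000, Lgr4 stood at 36.7 CPM (31.4 to 42.6), against 23.3 (18.9 to 28.5) in the 222 others. The Lgr4 level was 40.4 against 29.0 CPM in set 1 and 32.9 against 18.4 in set 2. Smoc2 stood at 76.2 CPM (68.5 to 84.5) and 52.8 (46.0 to 60.4), and per set at 60.4 against 50.2 and at 92.2 against 55.1. Lgr5 was lower in the cells with Tph1, at 10.7 CPM (7.96 to 14.1) and 20.9 (16.7 to 25.8), and per set at 8.51 against 24.3 and at 13.0 against 17.9. Within a set the intervals were apart only in set 2 for Lgr4 and Smoc2 and only in set 1 for Lgr5. Axin2 and Znrf3 had overlapping intervals.

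The 534 cells with fewer than 5000 UMIs, which entered no gate, held Lgr5 at 98.2 CPM (80.5 to 119), Lgr4 at 59.1 (45.6 to 75.3) and Rnf43 at 40.9 (29.8 to 54.7). The levels of Lgr4 and Rnf43 lay above those of crypt-gated cells. Goblet- or Paneth-gated cells, 33 in all, held Lgr5 at 73.5 CPM (57.3 to 92.8) and Smoc2 at 105 (85.4 to 128), with 0 Olfm4 UMIs.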
